A study of Homo sapiens with 4 samples.

Results

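The genes described here are 10 genes of NF-κB signalling: 7 cytokine genes (IL6, CXCL8, CXCL1, CXCL2, CCL2, LIF and IL1B), 2 feedback inhibitor genes (NFKBIA and TNFAIP3) and the gene of 1 NF-κB subunit (RELB). They were chosen by name, with earlier results of these data known. All 10 of them were found among the 25027 symbols or unmatched identifiers of the deposited tables. The cells were RPE1, a telomerase-immortalised line of human retinal pigment epithelium, given 10 nM of a Stealth siRNA that targets SAF-A or of a negative control siRNA. SAF-A, the product of HNRNPU, is a chromatin- and RNA-binding protein of the nucleus. Libraries were made from ribo-depleted total RNA with a NEBNext Ultra kit and read as single 50-base reads.

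Each siRNA was sampled at 24 h and 48 h after transfection, which makes 4 groups of 1 library, and the libraries with SAF-A siRNA are called the knockdown below. All cells, controls included, received Lipofectamine RNAi MAX and a siRNA, so no untransfected level is known, and SAF-A was targeted with 1 siRNA sequence only. With 1 library per group no difference has a replicate check, and no p-value is given. The 95% intervals were deposited by the authors and describe how precisely a level was estimated in its library, not how much cultures vary. The RNA came from whole cultures, so fewer cells that express a gene and less RNA per cell cannot be told apart.

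NF-κB is a family of transcription factor dimers held in the cytoplasm by IκB proteins. Signals from cytokine or pattern recognition receptors activate the IκB kinase, IκB is degraded, and the dimers enter the nucleus and bind κB sites at their target genes. The targets include cytokine and chemokine genes and also the genes of the pathway's own inhibitors, so NFKBIA and TNFAIP3 are both outputs of the pathway and its brakes. Many cytokine mRNAs carry AU-rich elements in the 3′ UTR, which bind proteins that control how fast the mRNA is degraded.

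The sequences below show the κB consensus in the region from 250 bases before to 50 bases after the transcript start given in the files (GRCh37, 5′ to 3′ on the gene's strand, with the match in capitals). The consensus is a degenerate 10-base motif and was searched on both strands.
IL6 (chr7:22766736-22766765, plus strand): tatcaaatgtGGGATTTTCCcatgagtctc
CXCL1 (chr4:74735021-74735050, plus strand): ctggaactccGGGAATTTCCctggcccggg
CXCL2 (chr4:74964971-74965000, minus strand): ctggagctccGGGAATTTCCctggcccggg
NFKBIA (chr14:35874017-35874046, minus strand): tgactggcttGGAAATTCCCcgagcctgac
RELB (chr19:45504581-45504610, plus strand): gtgacgcgtgGGGGTTTTCCcgttccccag
RELB (chr19:45504653-45504682, plus strand): cggcggcgccGGGGAATTCCgccgccccgc
TNFAIP3 (chr6:138188331-138188360, plus strand): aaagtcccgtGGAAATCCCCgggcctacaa

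The consensus was found in 6 of the 10 windows, against 6.53% of the 11042 windows of tested genes. The 10 were chosen as genes of a pathway whose targets carry κB sites, so their higher share followed in part from the choice of genes. CXCL1, CXCL2 and TNFAIP3, which hold matches, are not among the tested genes. CXCL1 and CXCL2 had the same match on both strands at overlapping positions, and TNFAIP3 had 3 matches. The first match of TNFAIP3 lies 203 bases before the start. The others, of which the last is shown, lie just inside the transcript, as does that of CXCL2. These matches describe the letters only. The letters were not in the windows of CXCL8, CCL2, LIF and IL1B. CXCL8 held the shorter core GGAATTTCC, a search added after the consensus had given no match in CXCL8. On either strand the core was in 4 of the 10 windows and in 0.344% of the tested windows, and in CXCL1, CXCL2 and NFKBIA it overlaps the consensus matches. The core was chosen after these windows had been seen, and its letters are part of the matches shown for CXCL1 and CXCL2. Its share among the 10 windows was therefore partly fixed by that choice and cannot be compared with the share of the tested windows.
CXCL8 (chr4:74606184-74606213, plus strand): ttgcaaatcgtGGAATTTCCtctgacataa

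The 3′ UTRs were read from the GENCODE annotation of GRCh37 and searched for ATTTA on the mRNA strand, the core of AU-rich elements. The stretches shown are the 30 bases with the most copies, in capitals, for the cytokine genes at or near the 2-fold threshold at 48 h and for CXCL2, which had the densest cluster.
CXCL2 (chr4:74963307-74963336, minus strand): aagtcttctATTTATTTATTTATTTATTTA
CXCL8 (chr4:74608825-74608854, plus strand): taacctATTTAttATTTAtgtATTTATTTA
IL1B (chr2:113587580-113587609, minus strand): tgagcaaccgcttccctATTTATTTATTTA
LIF (chr22:30636511-30636540, minus strand): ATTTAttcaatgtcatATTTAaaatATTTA
CCL2 (chr17:32583957-32583986, plus strand): tatgccttaagtaatgttaattcttATTTA

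The whole 3′ UTRs held 10 copies of ATTTA in CXCL2, 9 in CXCL8, 7 in LIF, 6 each in IL6, CXCL1 and IL1B, 5 in TNFAIP3, 3 in NFKBIA, 1 in CCL2 and 0 in RELB. The median of the 10 genes was 6.57 copies per kb, against 1.82 over the 10146 tested genes with a 3′ UTR. The longer element TTATTTATT was present in 6 of the 10 (CXCL8, CXCL1, CXCL2, LIF, IL1B and TNFAIP3) and in 9.91% of the tested genes. Most of the 10 are cytokine genes, and many cytokine mRNAs carry these elements, so these differences followed in part from the choice of genes.

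Values are FPKM, reads scaled by transcript length and by the mapped reads of the library, so levels can be set side by side between genes. The files imply 28083822 to 30701282 mapped reads in 3 libraries, called the deep libraries below, and 1216740 in the 48 h knockdown, so every level in the latter rests on far fewer reads. HNRNPU, the targeted gene, measured 91.2 FPKM in the control and 10.4 FPKM in the knockdown at 24 h, and 84.6 FPKM in the control and 9.24 FPKM in the knockdown at 48 h. These are 11.4% and 10.9% of control. Of 11 retinal pigment epithelium markers, 8 were under 1 FPKM in each of 3 libraries and 9 in the 48 h knockdown, and RPE65 and TTR were listed at 0 in all 4. MITF was the highest of them at 4.23 to 9.01 FPKM. All 10 leukocyte markers were under 1 FPKM in every library, with a summed level of 0.218 to 0.421 FPKM.

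CXCL8, LIF and NFKBIA dominated the set in the deep libraries. CXCL8, a chemokine that attracts neutrophils, was the highest at 24 h, LIF, an interleukin-6 family cytokine that signals through gp130, was the highest in the control library at 48 h, and NFKBIA, which encodes IκBα, followed these in all 3, with an interval that overlapped that of LIF in the 24 h control. The remaining genes were below 6 FPKM in these libraries. In the 48 h knockdown NFKBIA was the highest, and CCL2, CXCL8, IL1B, LIF and RELB followed with overlapping intervals from each to the next. CXCL1 and CXCL2 had the lowest listed values in all 4 libraries, but the interval of CXCL1 overlapped that of IL6 in the 24 h control and that of TNFAIP3 in the 48 h control, and in the 48 h knockdown the limits at 0 reads lay above the levels of IL6 and TNFAIP3.

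**Figure D1:**
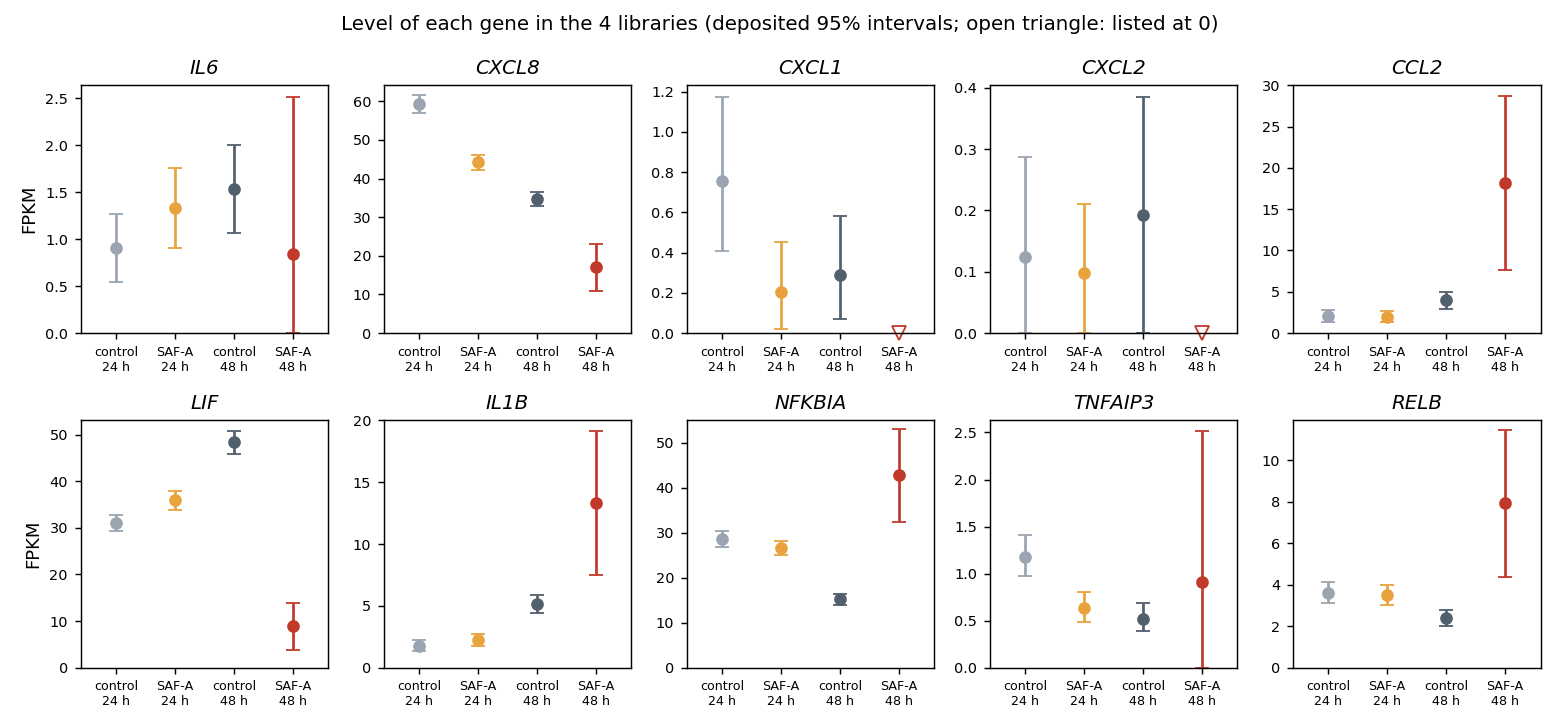
Level of each of the 10 genes in FPKM (vertical axis, a separate linear scale per gene) in the 4 libraries, with the deposited 95% intervals as bars and open triangles for values listed at 0. CCL2, IL1B, NFKBIA and RELB are highest and CXCL8 and LIF lowest in the 48 h knockdown, where the bars are also widest.

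The comparison of SAF-A with control siRNA asks how these mRNAs differ when SAF-A is depleted. A gene was called when log2(FPKM + 1) differed by at least 1 (2-fold), a scale that understates the change of low genes. Below, counts and statements about 2-fold use this scale, and ratios of single genes use FPKM. At 24 h 0 of the 10 genes were at least 2-fold higher and 0 were at least 2-fold lower, where 0.389% and 0.244% of the 11049 tested genes were. At 48 h 4 of the 10 were at least 2-fold higher, where 14.3% of tested genes were, and 1 was at least 2-fold lower, where 18.5% were. The 4 higher genes were CCL2, IL1B, NFKBIA and RELB, and the lower gene was LIF. The median log2 change at 48 h was 0.04 over the 10 genes, against -0.11 over all tested genes. It was 0.77 over the 8 left without CXCL1 and CXCL2, which were listed at 0 in the knockdown. Genes listed at 0 were kept in the median over all tested genes, so the value of 0.77 cannot be compared with it. To be tested, a gene needed a spliced length of 300 nt and an average of 1 FPKM across libraries. Of the 10 genes 7 passed, with IL6 just inside at an average of 1.15 FPKM, and CXCL1, CXCL2 and TNFAIP3 were below the minimum.

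Markers of cell state moved with the 48 h knockdown and their part in these results was not tested. The summed level of 4 epithelial keratins was 165 to 302 FPKM in the deep libraries and 42.6 FPKM in that library, and KRT19 was at or near 0 throughout. The summed level of 7 mesenchymal markers was 2149 to 2947 FPKM in the deep libraries and 4152 FPKM in that library, and COL1A2 was at or near 0. Most of this sum was VIM alone, at 1585.5 to 2145 FPKM in the deep libraries and 3312 FPKM in that library. Of the 6 tested mesenchymal markers 3 were at least 2-fold higher and 0 lower with SAF-A siRNA at 48 h (all tested genes: 14.3% higher and 18.5% lower). The leukocyte markers CD3E and TYROBP were listed at 0 in every library.

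Among the inhibitors, NFKBIA (chromosome 14, 35870716 to 35873960, minus strand) was at 28.6 FPKM in the control and 26.6 FPKM in the knockdown at 24 h, then at 15.2 FPKM in the control and 42.8 FPKM in the knockdown at 48 h. The 48 h knockdown was the highest of the 4 libraries and the 48 h control the lowest, and neither interval overlapped that of any other library. At 48 h the ratio of SAF-A to control was 2.81, and the most extreme combinations of the interval bounds gave 1.97 to 3.81. It rested on about 71 reads with SAF-A siRNA and 595 with control siRNA, and 6.34% of tested genes were at least as high in log2 change. At 24 h the intervals overlapped, with a ratio of 0.93 (bounds 0.82 to 1.05).

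RELB (chromosome 19, 45504707 to 45541456, plus strand) encodes the subunit that pairs with the processed product of NFKB2 in the non-canonical pathway. Its level was 3.63 FPKM in the control and 3.51 FPKM in the knockdown at 24 h, and 2.40 FPKM in the control and 7.94 FPKM in the knockdown at 48 h. As with NFKBIA, the 24 h libraries could not be distinguished and the 48 h libraries held the extremes. The 48 h ratio was 3.31 (bounds 1.57 to 5.75), from about 20 reads in the SAF-A library, and 6.91% of tested genes were at least as high in log2 change.

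TNFAIP3 (chromosome 6, 138188325 to 138204451, plus strand) encodes a ubiquitin-editing enzyme that switches off signalling upstream of the IκB kinase. It was at 1.17 FPKM in the control and 0.632 FPKM in the knockdown at 24 h, with intervals apart and a ratio of 0.54 (bounds 0.35 to 0.82). At 48 h it was at 0.522 FPKM in the control and 0.916 FPKM in the knockdown, where about 5 reads gave an interval of 0 to 2.51 FPKM. A difference at 48 h was therefore not detectable at this depth.

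Among the cytokines, CCL2 (chromosome 17, 32582296 to 32584220, plus strand), which attracts monocytes, was at 2.098 FPKM in the control and 1.98 FPKM in the knockdown at 24 h, then at 3.99 FPKM in the control and 18.2 FPKM in the knockdown at 48 h. Its 48 h knockdown level stood above the intervals of the other libraries, although it came from about 12 reads. The 48 h ratio was 4.55 (bounds 1.52 to 9.68), and 2.44% of tested genes were at least as high in log2 change.

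IL1B (chromosome 2, 113587337 to 113594356, minus strand) encodes a cytokine that is made as an inactive precursor and itself activates NF-κB. It was at 1.79 FPKM in the control and 2.27 FPKM in the knockdown at 24 h, then at 5.16 FPKM in the control and 13.3 FPKM in the knockdown at 48 h, the last from about 21 reads. Both 48 h libraries lay above both 24 h libraries, with intervals that did not overlap between times or, at 48 h, between siRNAs. The 48 h ratio was 2.58 (bounds 1.27 to 4.35), and 9.65% of tested genes were at least as high in log2 change.

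LIF (chromosome 22, 30636436 to 30642840, minus strand) was at 31.0 FPKM in the control and 35.9 FPKM in the knockdown at 24 h, then at 48.3 FPKM in the control and 8.94 FPKM in the knockdown at 48 h. No interval overlapped another, and the 48 h knockdown lay far below the 3 deep libraries. LIF was 5.41-fold lower with SAF-A siRNA at 48 h (bounds 3.28 to 13.0), from about 40 reads, and at 24 h slightly higher with a ratio of 1.16 (bounds 1.04 to 1.30). Only 1.95% of tested genes had a log2 change at 48 h as low or lower.

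The files list 2 LIF transcripts, and their sum hides a further difference. The main transcript (3969 nt) was at 48.2 FPKM in the control and 4.51 FPKM in the knockdown at 48 h. The second (3790 nt) went from 0.00418 FPKM in the control to 0.491 FPKM in the knockdown at 24 h, and from 0.114 FPKM to 4.43 FPKM at 48 h. Its knockdown intervals, 0.295 to 0.688 FPKM at 24 h and 1.87 to 6.996 FPKM at 48 h, lay above those of the control. The split of reads between the transcripts is the deposited estimate, and in the 48 h knockdown it is about 19 reads for the second and 21 for the main transcript. Exons of the antisense genes LIF-AS1 and LIF-AS2 overlap 92 and 175 bases of LIF, those of IL6-AS1 and STEAP1B overlap 53 and 46 bases of IL6, and the use of strand is not given in the sources used here.

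CXCL8 (chromosome 4, 74606223 to 74609433, plus strand) was at 59.3 FPKM in the control and 44.2 FPKM in the knockdown at 24 h, then at 34.7 FPKM in the control and 16.97 FPKM in the knockdown at 48 h. No interval overlapped another, so the 4 libraries had a clear order, with SAF-A below control at each time and 48 h below 24 h with each siRNA. The ratio of SAF-A to control was 0.75 (bounds 0.69 to 0.81) at 24 h and 0.49 (bounds 0.30 to 0.70) at 48 h. The 48 h log2 change of -0.99 fell just short of the 2-fold threshold, and it passed with a pseudocount of 0.1 (-1.03), after rescaling to TPM (-1.02) and after centring (-1.03). In the same comparison 18.7% of tested genes had a log2 change as low or lower.

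IL6 (chromosome 7, 22766766 to 22771621, plus strand), a cytokine that signals through gp130, was low throughout. It was at 0.908 FPKM in the control and 1.33 FPKM in the knockdown at 24 h, then at 1.53 FPKM in the control and 0.839 FPKM in the knockdown at 48 h. All 4 intervals overlapped, and the last value was 1 read with an upper bound of 2.52 FPKM. No difference in IL6 was detectable at this depth.

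CXCL1 and CXCL2 are neutrophil chemokines encoded by near copies on chromosome 4 (74735109 to 74737019, plus strand, and 74962754 to 74964997, minus strand). CXCL1 was at 0.756 FPKM in the control and 0.203 FPKM in the knockdown at 24 h, from about 21 and 6 reads with overlapping intervals, and at 0.290 FPKM with control siRNA at 48 h. CXCL2 did not pass 0.193 FPKM in any library. Both were listed at 0 with SAF-A siRNA at 48 h. There 3 reads, taken as the upper bound for a count of 0, would be 2.49 FPKM for CXCL1 and 2.46 FPKM for CXCL2. These bounds lie above every level of the 2 genes in the other libraries. Of the 1120 positions at which a 50-base read can lie in the CXCL1 mRNA, 60 (5.36%) were identical in CXCL2, and reads from these positions cannot be assigned to 1 of the genes by sequence.

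**Figure D2:**
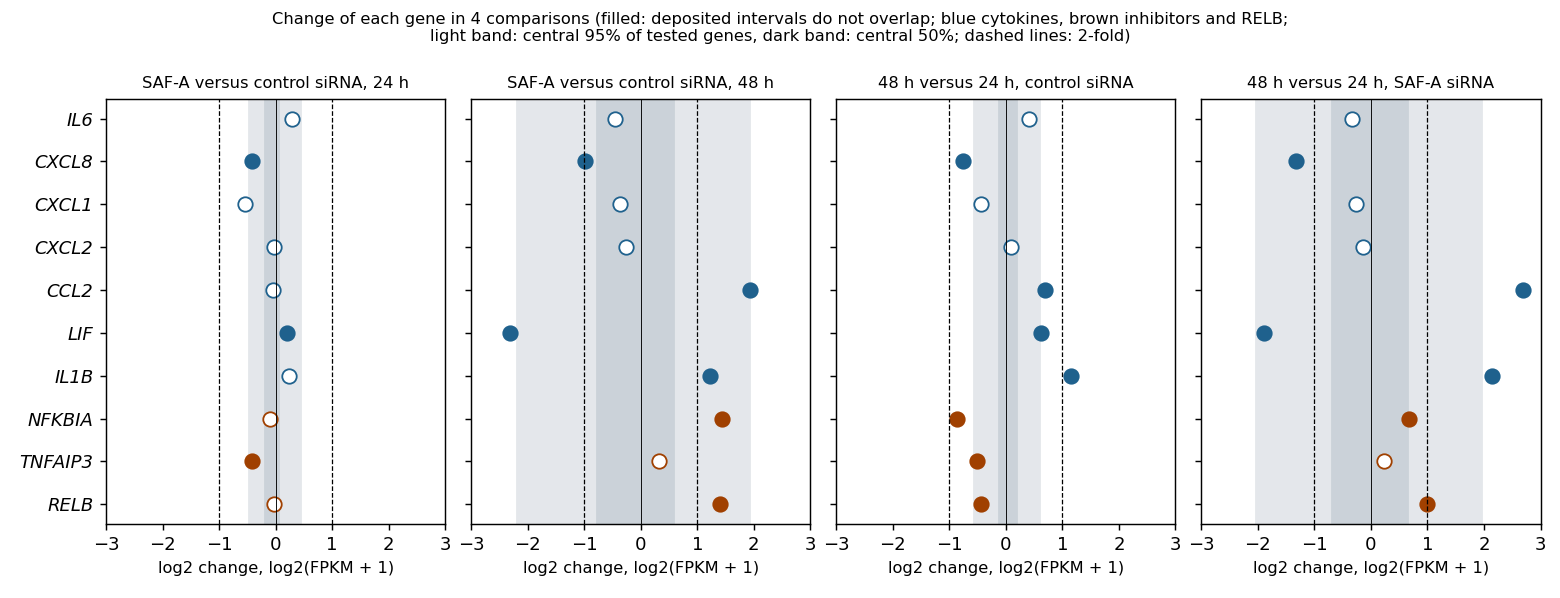
Change of each gene on the log2(FPKM + 1) scale (horizontal axis) in the 4 comparisons, with filled points where the deposited intervals do not overlap, dashed lines at 2-fold, and grey bands for the central 95% and 50% of tested genes. No gene reaches 2-fold on this scale between siRNAs at 24 h, and at 48 h CCL2, IL1B, NFKBIA and RELB lie beyond the line on the higher side and LIF on the lower side, in a comparison with far wider bands. CXCL1 and CXCL2 were listed at 0 in the 48 h knockdown, so their points against it have no scale.

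The intervals of SAF-A and control siRNA did not overlap for 3 of the 10 genes at 24 h (CXCL8, LIF and TNFAIP3), where 27.0% of tested genes had intervals apart, and for 6 at 48 h, where 49.1% did. All 5 genes called at 48 h had intervals apart. With that added to the 2-fold rule, 0.38% of tested genes were higher and 0.235% lower at 24 h, and 12.8% and 15.9% at 48 h. Over time the shares were 0.543% and 0.416% with control siRNA and 14.0% and 13.5% with SAF-A siRNA.

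**Figure D3:**
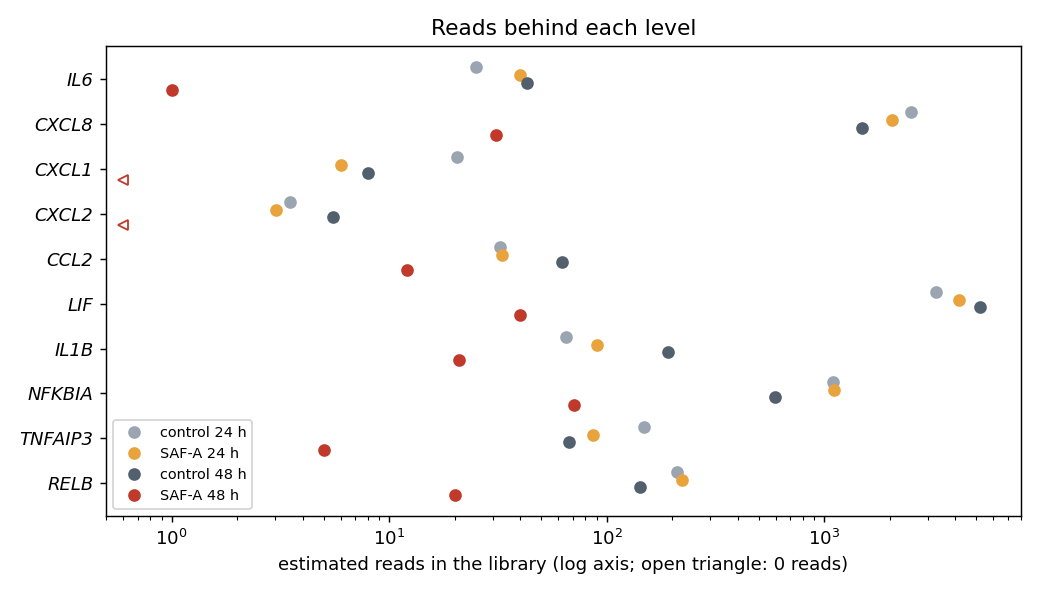
Estimated number of reads (log axis) behind each level in the 4 libraries. The 48 h knockdown values rest on 0 to 71 reads, and those of LIF and CXCL8 in the other libraries on 1493 to 5207.

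The comparison of 48 h with 24 h was made for each siRNA. With control siRNA 1 of the 10 genes was at least 2-fold higher at 48 h than at 24 h, where 0.561% of tested genes were, and 0 were at least 2-fold lower, where 0.425% were. The gene was IL1B, which was 2.89-fold higher (bounds 1.97 to 4.43). The intervals were apart for 7 of the 10 genes, against 32.4% of tested genes. The cytokines CCL2, LIF and IL1B were higher at 48 h, with log2 changes of 0.69, 0.63 and 1.14. CXCL8 and the pathway genes NFKBIA, TNFAIP3 and RELB were lower, with log2 changes of -0.76, -0.87, -0.51 and -0.45. The 3 inhibitor and subunit genes thus all stood lower at 48 h than at 24 h in the control libraries, whereas the cytokines were split.

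With SAF-A siRNA 2 of the 10 genes were at least 2-fold higher at 48 h, where 15.5% of tested genes were, and 2 were at least 2-fold lower, where 16.0% were. CCL2 was 9.18-fold higher (bounds 2.86 to 22.3) and IL1B was 5.89-fold higher (bounds 2.73 to 10.8). LIF was 4.01-fold lower (bounds 2.42 to 9.71) and CXCL8 was 2.61-fold lower (bounds 1.83 to 4.25). CCL2 and IL1B were thus higher at 48 h with both siRNAs, and CXCL8 was lower with both. NFKBIA had a log2 change of 0.67 and RELB of 0.99, opposite in sign to their changes with control siRNA, and LIF was also opposite in sign. RELB passed 2-fold with a pseudocount of 0.1 (1.16) and after rescaling to TPM (1.18). The intervals were apart for 6 of the 10 genes, against 47.9% of tested genes. Each library served in 2 comparisons, so the comparisons are not independent of one another.

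The other genes of the pathway were taken from lists by role, described by counts among members above the minimum, to be read against the shares over all tested genes at 48 h, 14.3% higher and 18.5% lower. At 24 h 0 genes of any of the 10 lists were at least 2-fold different between siRNAs on the log2(FPKM + 1) scale. At 48 h the receptors that start NF-κB signalling had 2 of 8 higher and 0 lower (all tested genes: 14.3% higher and 18.5% lower), with a median log2 change of 0.62 against -0.11 over all tested genes. IL1RAP, the shared signalling chain of the interleukin-1 receptor, was at 6.92 FPKM in the control and 20.5 FPKM in the knockdown. IL17RC, a chain of the interleukin-17 receptor, was at 10.7 FPKM in the control and 34.1 FPKM in the knockdown. TLR4, the lipopolysaccharide receptor, had a log2 change of -0.96 and TNFRSF12A, the TWEAK receptor, of 0.58, both short of 2-fold on the log2(FPKM + 1) scale. In FPKM, TLR4 was at 24.3 in the control and 11.9 in the knockdown. The ligand gene TNF was listed at 0 in all 4 libraries.

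The adaptors and kinases had 1 of 21 higher and 1 lower at 48 h (all tested genes: 14.3% higher and 18.5% lower), with a median of 0.08 against -0.11. TBK1, a kinase related to the IκB kinases, was at 22.5 FPKM in the control and 51.9 FPKM in the knockdown, and RBCK1, a part of the linear ubiquitin ligase, was at 16.5 FPKM in the control and 5.14 FPKM in the knockdown. IKBKG, the regulatory part of the IκB kinase, and IRAK2, an interleukin-1 receptor kinase, were short of 2-fold on the log2(FPKM + 1) scale at -0.98 and 0.75. In FPKM, IKBKG was at 24.4 in the control and 11.9 in the knockdown. Of the 4 tested Rel subunits RELB alone passed 2-fold on the log2(FPKM + 1) scale, upward, and NFKB2, NFKB1 and RELA had log2 changes of 0.97, 0.41 and 0.11. In FPKM, NFKB2 was at 8.88 in the control and 18.3 in the knockdown, with overlapping intervals.

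The IκB proteins and feedback inhibitors had 2 of 16 higher and 3 lower at 48 h, near the shares over all tested genes of 14.3% higher and 18.5% lower, with a median of 0.25 against -0.11. Besides NFKBIA, the higher gene was TNIP1, which encodes a partner of the TNFAIP3 protein, at 29.7 FPKM in the control and 63.5 FPKM in the knockdown. The lower genes were NFKBIZ, ZC3H12A and IER3, and the call of IER3 rested on 45.4 FPKM in the control and 20.6 FPKM in the knockdown, with overlapping intervals. NFKBIE, a further IκB gene, had a log2 change of 0.91 and TNIP2 of -0.64.

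Of the other cytokine genes 5 of 24 were above the minimum, and 3 of them were at least 2-fold higher and 0 lower at 48 h (all tested genes: 14.3% higher and 18.5% lower). CSF2 and IL32 passed the minimum only through the 48 h knockdown, where they are high, and with the average taken over the deep libraries 1 of 3 was higher and 0 lower. CSF1, a macrophage growth factor, was at 3.72 FPKM in the control and 13.9 FPKM in the knockdown, with intervals apart. The levels of CSF2 and IL32 in the 48 h knockdown were about 3 and 4 reads with overlapping intervals, and IL11 had a log2 change of -0.36. The other NF-κB targets had 4 of 17 higher and 3 lower (all tested genes: 14.3% higher and 18.5% lower), with a median of 0.37 against -0.11. C3 and EFNA1, counted as higher, likewise passed the minimum only through the 48 h knockdown, and over the deep libraries the count was 2 of 15 higher and 3 lower, with a median of 0.19. SOD2, the mitochondrial superoxide dismutase, was at 25.7 FPKM in the control and 119 FPKM in the knockdown, and PLAUR, the urokinase receptor, was at 42.9 FPKM in the control and 159.5 FPKM in the knockdown. GADD45B, a stress-induced growth arrest gene, was at 27.6 FPKM in the control and 6.32 FPKM in the knockdown. SDC4, a cell surface proteoglycan, was lower at both times, with log2 changes of -0.84 at 24 h and -1.75 at 48 h.

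Of the receptors of the 7 cytokines and related genes 4 of 11 were above the minimum, with 1 higher (IL1RAP) and 1 lower (IL6R) at 48 h (all tested genes: 14.3% higher and 18.5% lower) and a median of -0.03 against -0.11. IL6R, the ligand-binding receptor of IL6, was at 3.86 FPKM in the control and 0.896 FPKM in the knockdown at 48 h, the latter from about 3 reads, with intervals apart. With control siRNA its log2 change from 24 h to 48 h was 1.29. CXCR1 and CXCR2, the receptors of CXCL8, CXCL1 and CXCL2, and CCR2, the receptor of CCL2, were below 0.03 FPKM in every library. IL6ST, which encodes gp130, was at 35.6 FPKM in the control and 19.3 FPKM in the knockdown at 48 h. In gp130 and STAT3 signalling 2 of 10 genes were higher and 2 lower at 48 h (all tested genes: 14.3% higher and 18.5% lower), with a median of 0.33 against -0.11. JAK1 was at 26.5 FPKM in the control and 79.3 FPKM in the knockdown, SOCS3, a feedback inhibitor of this pathway, was at 10.04 FPKM in the control and 3.57 FPKM in the knockdown, and STAT3 and OSMR had log2 changes of 0.84 and 0.15.

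AP-1 and C/EBP factors bind many of the same cytokine promoters. Of 10 tested genes 6 were at least 2-fold lower and 2 higher at 48 h (all tested genes: 18.5% lower and 14.3% higher), with a median log2 change of -1.45 against -0.11 over all tested genes. JUN, a main AP-1 subunit, was at 47.6 FPKM in the control and 43.9 FPKM in the knockdown at 24 h, then at 70.0 FPKM in the control and 18.7 FPKM in the knockdown at 48 h. BATF3 and JUNB were lower by log2 changes of -2.31 and -1.92 at 48 h, from about 1 and 3 reads with SAF-A siRNA. JUND was higher by 1.08, and CEBPB was short of 2-fold on the log2(FPKM + 1) scale at -0.96, with 18.6 FPKM in the control and 9.06 FPKM in the knockdown. FOS was at 6.48 FPKM in the 48 h control and listed at 0 in the 48 h knockdown, which is at least 5.15-fold lower at the limit of 3 reads in the library. FOSL1 and FOSL2 were also lower, and CEBPD was also higher, with overlapping intervals.

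The factors that bind or degrade mRNAs with AU-rich elements had 1 of 16 higher and 1 lower at 48 h (all tested genes: 14.3% higher and 18.5% lower), with a median of -0.29 against -0.11. RC3H2, a paralog of the decay factor roquin, was at 6.48 FPKM in the control and 13.8 FPKM in the knockdown at 24 h, then at 6.44 FPKM in the control and 16.9 FPKM in the knockdown at 48 h. Its 24 h change of 0.98 on the log2(FPKM + 1) scale fell just short of a call, with intervals apart. The lower gene was ZFP36L2. ZFP36L1, TIA1 and EXOSC10 were short of 2-fold at 48 h, with log2 changes of -0.78, -0.67 and 0.62.

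**Figure D4:**
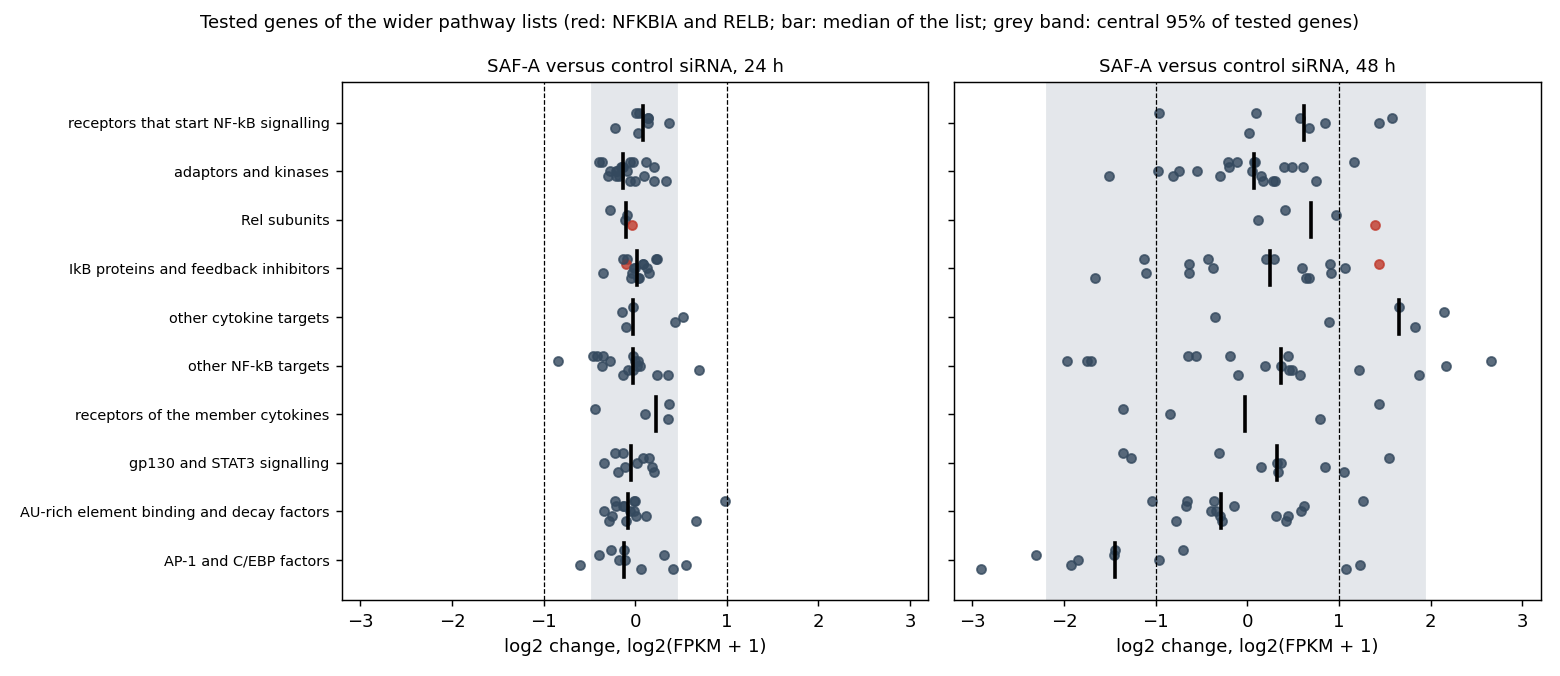
Log2(FPKM + 1) change between SAF-A and control siRNA (horizontal axis) at 24 h and 48 h for the tested genes of 10 lists by role, with red points for NFKBIA and RELB, a bar at each list's median and a grey band for the central 95% of tested genes. No gene reaches 2-fold on this scale at 24 h, and at 48 h the median of the AP-1 and C/EBP factors stands at -1.45.

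Likeness of pattern was measured as the Euclidean distance between log2(FPKM + 1) values centred on each gene's own average, for genes that averaged 5 FPKM or more. The 3 genes nearest to CXCL8, of 7706 compared, were POLD3, ADAMTS1 and UBASH3B, at distances of 0.19, 0.20 and 0.21, where the median gene was at 1.40. ADAMTS1, a secreted protease, went from 42.1 FPKM in the control 24 h library to 36.7, 23.9 and 12.4 FPKM in the 24 h knockdown, 48 h control and 48 h knockdown. Nearest to NFKBIA were a RefSeq row without a matched symbol, GTF3A and PPP1R12A, at 0.14, 0.18 and 0.19, where the median gene was at 1.13. GTF3A, a factor for transcription of 5S ribosomal RNA, was at 71.4, 76.9, 42.5 and 105 FPKM in the same order of libraries. These distances rest on 4 libraries and describe these libraries only.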

How the data were processed

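Each library had a gene table with FPKM and lower and upper 95% bounds computed by the authors, per the file headers, and a transcript file, from which exons and the other attributes the authors deposited (a coverage value) were used. The build is hg19 and the tools include TopHat2 2.0.10, Bowtie2 2.1.0 and Cufflinks 2.2.1, per the submitters' processing notes. GENCODE release 44 on GRCh37 held 82.0% of the distinct exons in the files. Symbols came from a RefSeq table (GRCh38.p14, names only), which matched 97.3% of identifiers, and FPKM and bounds were summed per symbol, which makes the bounds of a sum too wide.

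Coverage divided by FPKM gave the mapped reads of each library. Reads per gene were estimated with a fragment length of 200 ± 80 nt, and 22 of 28 values of the 7 genes with 1 RefSeq row came out whole within 0.5%. Reads carry no molecular identifiers, so intervals and the limit of 3 reads at 0, used as upper bound there, cover counting error only.

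Changes are differences in log2(FPKM + 1), computed with Python 3.11.15 and pandas 2.3.3 and tested on simulated libraries. No test was run, with 1 library per group. All 10 genes are described. From each list the 2 genes with the highest and the 2 with the lowest log2 change at 48 h are named among those with a mean of at least 5 FPKM, together with the 3 genes nearest in pattern to the highest cytokine and the highest inhibitor. Further genes of these lists (TNF, NFKBIZ, ZC3H12A, CSF2, IL32, C3, EFNA1, IL6R, CXCR1, CXCR2, CCR2, JUN, FOS, FOSL1, FOSL2, CEBPD and ZFP36L2), the LIF transcripts and the core GGAATTTCC were chosen after their values were seen. The genes and lists were chosen with earlier results of these data known. The alternatives tried were no filter on FPKM, a pseudocount of 0.1, all lengths, TPM, centring on the median change, intervals apart and, after the data were seen, a mean over the 3 deep libraries, also for the lists.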

Additional observations from a re-analysis of the deposited data

Results flagged for a closer look

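For 3 genes the same contrast went opposite ways in different groups, with deposited intervals apart in both. Each value rests on 1 library per group, and the difference between the contrasts was not tested. LIF had a log2 change between SAF-A and control siRNA of 0.21 at 24 h and -2.31 at 48 h, and a change from 24 h to 48 h of 0.63 with control siRNA and -1.89 with SAF-A siRNA. The 24 h change of LIF between siRNAs was 0.03 after rescaling to TPM and 0.27 after centring, so its size at 24 h depends on the scaling. NFKBIA changed from 24 h to 48 h by -0.87 with control siRNA and by 0.67 with SAF-A siRNA. RELB changed from 24 h to 48 h by -0.45 with control siRNA and by 0.99 with SAF-A siRNA.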

How the results depend on the processing

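No paired analysis was possible because each group had 1 library. CCL2, IL1B, NFKBIA and RELB stayed at least 2-fold higher and LIF at least 2-fold lower at 48 h in the alternatives run on them. The count of lower genes among the 10 was 4 at 48 h, 1 at 24 h and 2 over time with control siRNA at a pseudocount of 0.1, through CXCL8, TNFAIP3, CXCL1 and CXCL2 (the last 2 at 0 reads in the 48 h knockdown), and 2 at 48 h with TPM and 2 with centring, through CXCL8. A pseudocount of 0.1 gave 78 higher and 58 lower tested genes at 24 h, and 134 and 105 over time with control siRNA. All lengths gave 213 and 145 at 24 h, and 208 and 158 over time. Over all counts and HNRNPU, 85 alternatives stayed within 1.5 times or within the bounds and 13 did not. Over the log2 changes of the 10 genes, 109 alternatives stayed within the bounds and 11 did not. With TPM these included the 24 h changes between siRNAs of CXCL8 (to -0.60), LIF (to 0.03) and NFKBIA (to -0.28). TPM moved the median of all tested genes by -0.16 at 24 h and by 0.20 over time with SAF-A siRNA, and the share of calls that were higher went from 61.4% to 43.3% and from 49.3% to 63.8%, and with control siRNA over time from 56.9% to 68.4%. TPM divides by the summed level of all transcripts. Those under 300 nt, which were not tested, held 63.4% of it in the 24 h knockdown and 50.5% in the 48 h knockdown, so TPM values also follow that share. Centring changed the sign of the 24 h log2 change of CCL2 (to 0.01), CXCL2 (to 0.03) and RELB (to 0.03). The 1216740 reads of the 48 h knockdown limit IL6, CXCL1, CXCL2 and TNFAIP3 there.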
